A study of Mus musculus with 6 samples.

Results

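The nuclear-encoded genes of the mitochondrial respiratory chain and ATP synthase were followed in cells sorted as kidney intercalated cells early after ischemia. Gene names were chosen by their symbol stem (Nduf, Sdh, Uqcr, Cox or Atp5), and members were selected on a measured value, a mean of at least 10 reads over the 6 samples. Of 37583 genes, 92 names matched and 85 passed that level. Just inside it were Atp5g2 with a mean of 16.2 reads and Atp5l2 with 17, and just outside was Cox4i2 with 8.17. Mitochondrially encoded genes (mt- names) are not analysed here: 0 names matched, so the set holds only the nuclear side of the chain. Intercalated cells of the collecting duct secrete acid or base. The samples were EGFP+ cells, sorted in 2 rounds from the renal medulla of 12-week-old B1 VATPase EGFP transgenic mice, in which EGFP is described as specific to intercalated cells. The 3 sham samples were taken 2 h after a sham operation, and the 3 IRI samples 2 h after ischemia reperfusion injury, in which blood flow to the kidney is stopped and then restored. Both groups carried the transgene, and each sample pooled 4 kidneys of 2 mice. The labels also give the tissue as epididymis and name CX3CR1 as the gene that drives EGFP, which goes against the description of the design.

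Each sample had 17421669 to 24245330 reads counted in genes. Summed intercalated cell markers reached 19571 to 25432 CPM in sham (each gene's reads scaled to a common library size) and 20836 to 24738 CPM in IRI, and 2 of 8 were called lower in IRI. Principal cell markers summed to 11217 to 12401 CPM in sham and 5424 to 10592 CPM in IRI, and 2 of 5 tested were called lower. Aqp2 alone had a mean of 9363 CPM in sham and 6578 CPM in IRI, so the sorted samples also held RNA of principal cell genes. The values below are those of the sorted samples, not of intercalated cells alone. Thick limb and distal convoluted tubule markers summed to 747 to 1351 CPM in sham and 816 to 1256 CPM in IRI. Of these 5, 0 were called in either direction. Proximal tubule markers summed to 10.8 to 21.1 CPM in sham and 13.6 to 29.4 CPM in IRI, with 1 of 5 tested called lower. Macrophage markers summed to 10.3 to 14.7 CPM in sham and 49.8 to 72.8 CPM in IRI, with 3 of 5 tested called higher, while Csf1r and C1qa stayed under 1 CPM in every sample. Of 6 epididymis markers, Lcn5 and Cst11 had 0 reads in all samples and the sum was at most 13.3 CPM; Cx3cr1 had a mean of 0.333 reads.

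The respiratory chain moves electrons from NADH (complex I) and succinate (complex II) through ubiquinone to complex III, and through cytochrome c to complex IV, where oxygen is reduced. Complexes I, III and IV pump protons across the inner mitochondrial membrane, and ATP synthase (complex V) uses the gradient to make ATP. Each complex except complex II joins nuclear-encoded subunits to subunits encoded by mitochondrial DNA, and assembly factors that are not part of the finished enzyme build them. Many of the nuclear genes have promoters with sites for NRF1, GABP, ERR or YY1, transcription factors known for their role in respiratory gene expression.

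Promoters are shown for 4 genes that carry the results below and hold such letters. Sequences run from 250 bases before to 50 bases after the transcription start, from RefSeq on GRCm38.p6, a different build from that of the counts. Capitals mark matches on either strand to the NRF1 core GCATGCGC, the GABP site CCGGAAG, the ERR half-site AAGGTCA or the YY1 site AAGATGGC. Ndufa8 (chr2:36049289-36049588, minus strand) holds an NRF1 core, Ndufs7 (chr10:80249199-80249498, plus strand) a YY1 site after the start, Ndufaf4 (chr4:24897833-24898132, plus strand) 3 NRF1 cores of which a pair overlaps on opposite strands, and Sdhd (chr9:50603800-50604099, minus strand) a GABP site and an ERR half-site.
Ndufa8: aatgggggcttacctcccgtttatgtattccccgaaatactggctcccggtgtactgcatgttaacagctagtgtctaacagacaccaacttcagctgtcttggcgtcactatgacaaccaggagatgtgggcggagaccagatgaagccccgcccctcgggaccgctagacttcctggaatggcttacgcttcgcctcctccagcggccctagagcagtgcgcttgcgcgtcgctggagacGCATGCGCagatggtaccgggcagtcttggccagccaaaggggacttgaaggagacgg
Ndufs7: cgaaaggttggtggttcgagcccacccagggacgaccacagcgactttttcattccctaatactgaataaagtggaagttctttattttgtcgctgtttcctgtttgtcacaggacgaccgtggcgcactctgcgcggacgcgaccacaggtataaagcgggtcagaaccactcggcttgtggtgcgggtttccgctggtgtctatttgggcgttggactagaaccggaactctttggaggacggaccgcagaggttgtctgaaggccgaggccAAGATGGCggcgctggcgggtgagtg
Ndufaf4: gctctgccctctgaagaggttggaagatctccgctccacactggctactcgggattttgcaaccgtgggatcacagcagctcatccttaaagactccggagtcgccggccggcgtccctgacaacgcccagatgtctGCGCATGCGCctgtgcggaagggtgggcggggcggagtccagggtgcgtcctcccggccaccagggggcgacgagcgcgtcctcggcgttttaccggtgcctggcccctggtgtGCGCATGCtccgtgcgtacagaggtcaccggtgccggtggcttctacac
Sdhd: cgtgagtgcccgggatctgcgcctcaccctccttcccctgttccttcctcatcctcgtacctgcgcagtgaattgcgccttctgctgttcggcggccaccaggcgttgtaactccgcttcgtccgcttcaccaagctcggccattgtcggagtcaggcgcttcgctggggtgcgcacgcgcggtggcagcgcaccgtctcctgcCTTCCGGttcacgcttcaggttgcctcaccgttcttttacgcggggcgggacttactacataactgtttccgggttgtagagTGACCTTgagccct

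RefSeq promoters were matched for 70 of the 85 genes. The NRF1 core occurred in 11 of them (15.7%), against 3.05% of the 27025 genes with a promoter of the same length. The GABP site occurred in 17 (24.3%, against 9.93%), the ERR half-site in 8 (11.4%, against 5.38%) and the YY1 site in 10 (14.3%, against 3.19%). At least one of the 4 motifs was present in 36 of 70 (51.4%), against 19.7% of all genes, and in 6 of the 9 matched promoters whose gene was called lower after IRI. Ndufb10, Ndufab1 and Cox7a2l are the matched genes called lower whose windows hold none of these letters. The 27025 genes were not limited to those expressed in these cells, and a gene with several windows counts if any holds a match. A comparison with expressed genes alone was not made. A match describes the sequence and is not evidence of binding.

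Few respiratory chain genes passed the test 2 h after IRI, and those that did were all lower. In edgeR's quasi-likelihood fit of 13881 genes, with Benjamini-Hochberg adjustment over all of them, 10 of 85 members were called lower (11.8%) and 0 higher, at an adjusted p under 0.05. Over all genes tested, 45.5% were called in either direction, 21.2% lower and 24.2% higher, so the share of members called lower was under that background with these settings; the order of the 2 shares turned under 5 of 16 alternatives, given with the sample values below and in the closing section. At an unadjusted p under 0.05, 17 members were lower and 0 higher, against 3546 lower and 3807 higher of the 13881 genes tested. DESeq2, limma-voom and limma on log2 RPKM also called 0 members higher. The log2 fold change, IRI over sham, was below 0 for 73 members, against 6937 of the 13881 genes tested. The median member was at -0.14, against 0.00 over all genes tested. With 1 sample left out, 56 members (without sham replicate 2) to 84 (without sham replicate 1) were below 0. The member median was then -0.08 without sham replicate 2 or IRI replicate 1, and -0.27 without sham replicate 1. All IRI samples lay below all sham samples for 13 members, against 27.2% of all genes tested. For 52 of the 75 members without a call the 95% interval of the log2 fold change lay within 0.5 of 0, and for 73 within 1. Samples of pooled cells cannot tell fewer cells of a type from less RNA per cell. The lower principal cell and higher macrophage marker sums move with the groups, and their part in these results was not tested.

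**Figure D1:**
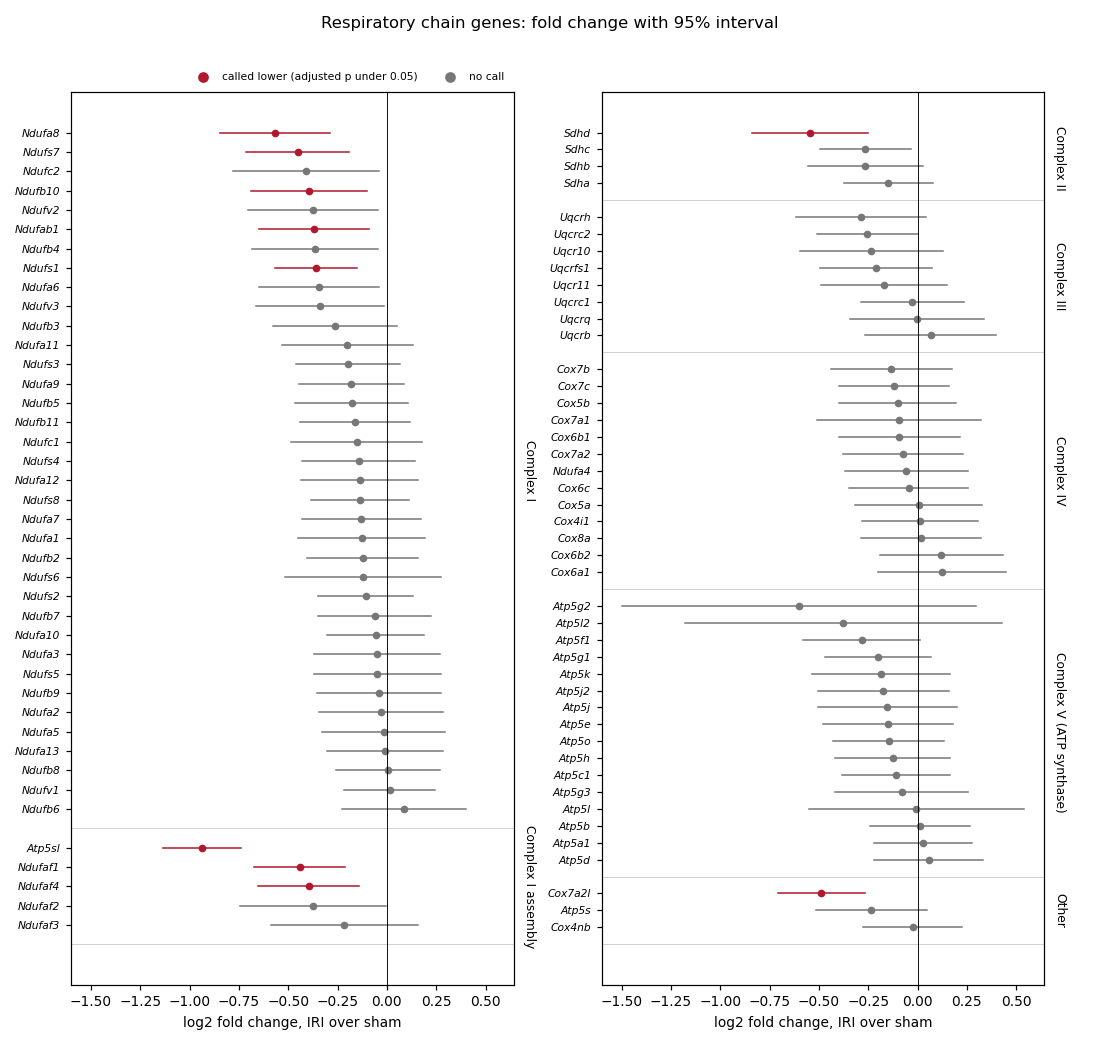
Log2 fold change (IRI over sham, x axis) of each of the 85 members with its 95% interval, grouped by complex. Red points are the 10 genes called lower at an adjusted p under 0.05 and grey points have no call; the red points lie in complex I, its assembly factors, complex II and the group of other names.

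One sham sample stood apart for these genes. Sham replicate 1 was the lowest of the 3 sham samples for 79 of 85 members, against 37.0% of all genes tested. IRI replicate 1 was the lowest IRI sample for 67, and the share over all genes was not counted for the IRI samples. Relative to each gene's mean over the 6 samples, the median member lay at -0.12 (log2) in sham replicate 1 and at 0.22 and 0.16 in sham replicates 2 and 3. The IRI samples lay at -0.19, -0.07 and 0.04, so that IRI replicates 2 and 3 were above sham replicate 1. In sham replicates 1 to 3, intercalated markers summed to 19571, 25432 and 23487 CPM, and principal markers to 12401, 11217 and 11639 CPM. In IRI replicates 1 to 3 these were 20836, 24738 and 21004 CPM, and 10592, 5424 and 8130 CPM. Replicate 1 of each group thus had the lowest intercalated and highest principal sum. Whether this bears on the members was not tested. Without sham replicate 1, 29 members were called lower, 34.1% against 19.1% of all genes in that fit, so the order of the shares turned; leaving out any other single sample gave 7 to 12. The members' share of the reads counted in genes, which scales by library total alone, was 6.40%, 7.62% and 7.37% in sham replicates 1 to 3 and 5.65%, 5.51% and 6.02% in IRI, so on this measure the groups did not overlap. The TMM factors were 1.06 to 1.10 in sham and 0.901 to 0.977 in IRI. With TMM the groups did overlap: complex I summed to 16425 CPM in sham replicate 1 and to 15887 to 18243 CPM in IRI. Scaled by library size alone, 50 members were called lower (58.8%, against 31.2% of all genes) and the median of all genes tested moved to -0.20. By upper quartile 24 were called (28.2%, against 27.3%) and that median moved to -0.12. Relative to the median of all genes, the median member was at -0.14 under each of these scalings.

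**Figure D2:**
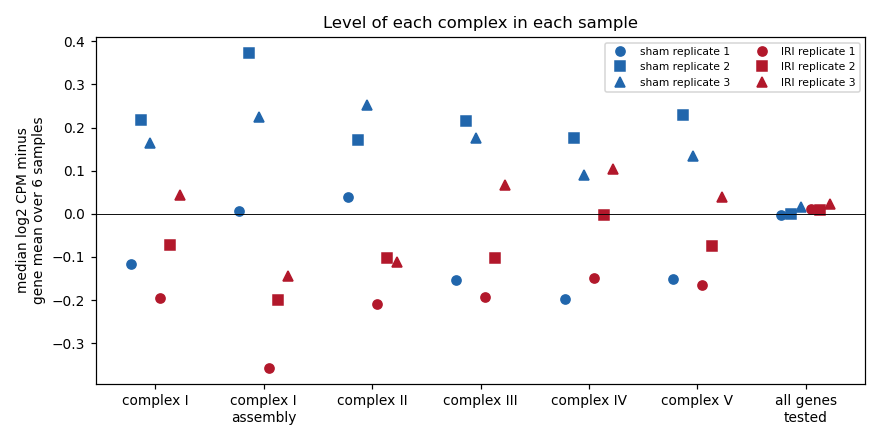
Median over the genes of each complex of log2 CPM minus the gene's mean over the 6 samples (y axis, log2 units), for each sample; blue is sham, red is IRI and the shape gives the replicate. Sham replicate 1 lies among the IRI samples in complexes I, III and V and below all of them in complex IV, while the groups are apart for complex I assembly factors and complex II; all genes tested stay near 0.

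Complex I oxidizes NADH. Its 36 nuclear members had 5 called lower (13.9%, against 21.2% of all genes tested) and 0 called higher (against 24.2%). The 21.2% lower, and 19.1% in the fit without sham replicate 1, are the background for each complex below. The complex I median log2 fold change was -0.14, and 2 of 7 core subunits and 3 of 29 accessory subunits were lower. Ndufa8 (ENSMUSG00000026895), an accessory subunit on the intermembrane side, stood at 598, 766 and 736 CPM in the sham samples and 464, 445 and 509 CPM in the IRI samples. Its lowest sham sample was above its highest IRI sample, and it fell by 0.57 ± 0.12 (log2, SE; n = 3 and 3; edgeR adjusted p = 0.00549). Ndufs7 (ENSMUSG00000020153), the core subunit with the last iron-sulphur cluster before ubiquinone, had 561, 705 and 681 CPM in sham and 460, 471 and 493 CPM in IRI. The groups again did not overlap, and the difference was -0.45 ± 0.12 (edgeR adjusted p = 0.0116). Ndufb10 (ENSMUSG00000040048), an accessory subunit of the membrane arm, had 845, 1069 and 1067 CPM in sham and 687, 763 and 816 CPM in IRI. Its sham replicate 1 was close to the highest IRI sample, and the difference was -0.40 ± 0.13 (edgeR adjusted p = 0.0334). Ndufs1 (ENSMUSG00000025968), the largest core subunit, had 469, 476 and 507 CPM in sham and a narrow 373, 378 and 379 CPM in IRI, a difference of -0.36 ± 0.092 (edgeR adjusted p = 0.0118). Ndufab1 (ENSMUSG00000030869), the mitochondrial acyl carrier protein that is also a complex I subunit, had 110, 141 and 141 CPM in sham and 92.7, 101 and 110 CPM in IRI. Its sham replicate 1 and IRI replicate 3 nearly met (-0.37 ± 0.12, edgeR adjusted p = 0.0349). Ndufb10 and Ndufab1 lost their call without sham replicate 2 or 3 or IRI replicate 1 or 2 (adjusted p up to 0.101 and 0.108), and then 3 complex I genes were called; without sham replicate 1 there were 13. Ndufb9, the complex I member with the highest mean RPKM, had no call (-0.04 ± 0.14).

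Of the 5 members that assemble complex I, 3 were called lower (60%, against 21.2% of all genes tested) and 0 higher. Their median was -0.40, and whether they differ as a group from the subunits was not tested. Atp5sl (ENSMUSG00000057229) is named like an ATP synthase gene, but its current symbol is Dmac2, a factor for the far end of the complex I membrane arm. It had the largest decrease among the 85 members, from 160, 168 and 164 CPM in sham to 81.8, 90.0 and 85.5 CPM in IRI. The samples of each group were tight and the groups far apart, with a change of -0.94 ± 0.087 (edgeR adjusted p = 7.33e-05). Ndufaf1 (ENSMUSG00000027305), which helps to build the membrane arm, fell from 76.3, 89.6 and 91.8 CPM to 62.7, 65.7 and 61.2 CPM (-0.44 ± 0.10, edgeR adjusted p = 0.00748). Ndufaf4 (ENSMUSG00000028261), which acts on the arm that reduces ubiquinone, had 207, 267 and 238 CPM in sham and 184, 171 and 187 CPM in IRI. The groups did not overlap (-0.40 ± 0.11, edgeR adjusted p = 0.0193), and the call was lost without sham replicate 2 or IRI replicate 2 (adjusted p up to 0.0707). Ndufaf3, the assembly factor with the highest mean RPKM, had 96.5, 142 and 131 CPM in sham and 88.3, 113 and 117 CPM in IRI, which overlap, and Ndufaf2 had a value of -0.37 ± 0.16 without a call. Without sham replicate 1, all 5 were called lower, against 19.1% of all genes in that fit. Under the current gene symbols, 9 further rows match the name stems, of which 8 were tested. The assembly factors Ndufaf7 (-0.42 ± 0.10, edgeR adjusted p = 0.0102) and Ndufaf5 (-0.28 ± 0.097, edgeR adjusted p = 0.0389) were lower among them and none was higher.

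**Figure D3:**
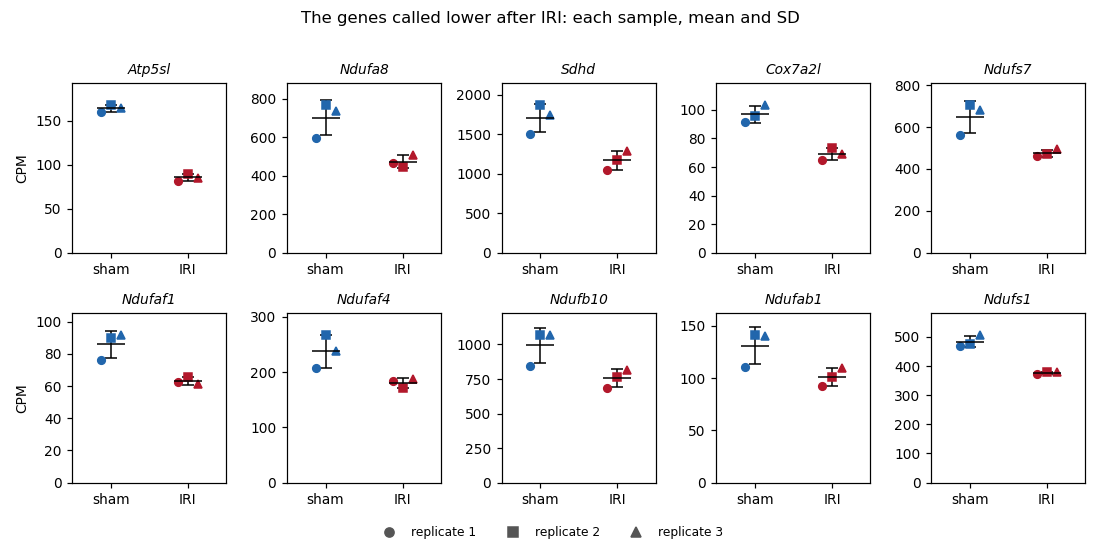
CPM (y axis, from 0) in each sample of the 10 members called lower, with the mean (long bar) and SD (capped line) of 3 samples; shapes give the replicate number. For every gene the 3 red IRI points lie under the 3 blue sham points, with the widest gap for Atp5sl.

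Complex II, succinate dehydrogenase, is also an enzyme of the citric acid cycle and is wholly nuclear-encoded. All 4 subunits had values below 0 (median -0.26), and 1 was called lower (25%, against 21.2% of all genes tested). Sdhd (ENSMUSG00000000171), a membrane anchor that helps to form the ubiquinone site, had 1510, 1871 and 1741 CPM in sham and 1043, 1179 and 1288 CPM in IRI. Its groups were clearly apart, and it fell by 0.54 ± 0.13 (edgeR adjusted p = 0.00834). Sdhc, the other anchor, had 530, 565 and 613 CPM in sham and 454, 493 and 474 CPM in IRI. These groups did not overlap either, but the difference missed the threshold (-0.27 ± 0.10, edgeR adjusted p = 0.0594), as it did for the flavoprotein subunit Sdha (-0.15 ± 0.099, edgeR adjusted p = 0.256), whose samples spanned 1277 to 1320 CPM in sham and 1145 to 1226 CPM in IRI. The iron-sulphur subunit Sdhb overlapped between groups (-0.26 ± 0.13). Without sham replicate 1, 3 of the 4 were called lower, against 19.1% of all genes in that fit.

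Complex III passes electrons from ubiquinol to cytochrome c. None of its 8 members passed the test, neither edgeR at an unadjusted p under 0.05 (0 genes) nor DESeq2 nor limma (0 each) called any, and the median was -0.19. Uqcr10, a small subunit with the highest mean RPKM in this complex, had 862, 1228 and 1113 CPM in sham and 810, 856 and 1059 CPM in IRI. Sham replicate 1 lay among the IRI samples, and the value was -0.23 ± 0.16. Uqcrc2, a core protein, was the one member with groups apart, at 769, 886 and 910 CPM against 658, 733 and 760 CPM (-0.25 ± 0.11, edgeR adjusted p = 0.0976). Leaving out sham replicate 1 gave 3 complex III genes called lower.

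Complex IV, cytochrome c oxidase, showed the values nearest 0. Its 13 members had a median of -0.06 and a range of -0.13 to 0.13, 0 were called in either direction (0 at an unadjusted p under 0.05, 0 by DESeq2 or limma), and in 12 of 13 the 95% interval lay within 0.5 of 0. Ndufa4, named for complex I but known as a subunit of complex IV, had 1451, 1880 and 1794 CPM in sham and 1464, 1673 and 1793 CPM in IRI. The IRI samples lay within the sham range, with sham replicate 1 the lowest of all 6 (-0.06 ± 0.14, 95% interval -0.37 to 0.25). Cox4i1 had 2041, 2557 and 2359 CPM in sham and 2143, 2308 and 2559 CPM in IRI, which also overlap. With sham replicate 1 left out, 1 member, Cox7a1, was called lower.

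Complex V had 16 members and 0 called in either direction (0 at an unadjusted p under 0.05, 0 by DESeq2 or limma), with a median of -0.15. One of them, Atp5l2, has the current symbol Atp5l2-ps, a pseudogene name, and is counted with the 8 stalk and membrane members and the 77 subunits. The 5 subunits of the catalytic F1 head had a median of 0.01 and the 8 of the stalk and membrane part -0.16. Atp5b, the catalytic beta subunit and the member with the most reads, had 6107, 6567 and 6699 CPM in sham and 6546, 6572 and 6427 CPM in IRI. The groups overlapped (0.01 ± 0.11, 95% interval -0.24 to 0.27). Of the 3 genes for the identical c subunit of the rotor ring, Atp5g3 was at -0.08 ± 0.15, Atp5g1 at -0.20 ± 0.12 and Atp5g2 at -0.60 ± 0.40 (log2 fold change, SE), none with a call, and the last rests on 11 to 23 reads a sample. When sham replicate 1 was left out, 3 complex V genes were called lower.

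Among the other names, Cox7a2l (ENSMUSG00000024248), which joins complexes III and IV into supercomplexes, was lower after IRI. It stood at 91.6, 96.0 and 103 CPM in sham and 64.7, 73.6 and 69.3 CPM in IRI. The groups were apart by more than their spread (-0.49 ± 0.097, edgeR adjusted p = 0.0035), and 13.8% of its 50-base stretches also occur in transcripts of other genes. Cox4nb (current symbol Emc8) and Atp5s match the name stems but are not subunits; their values were -0.02 ± 0.11 and -0.23 ± 0.12, without calls. Genes named here outside the rule for named genes were chosen after their values were seen. Among them are Ndufs1, Ndufab1, Cox7a2l, Ndufaf2, Ndufaf5, Ndufaf7, Sdhc, Sdhb, Sdha, Uqcrc2, Cox7c, Cox4nb, Atp5c1, Atp5l, Atp5l2 and Atp5s.

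The deposited RPKM divides reads by gene length and an effective library size. This level of a gene per length ran over more than 3 orders of magnitude among the members. The highest sham means were those of complex IV genes: Ndufa4 at 3543 ± 471 RPKM (SD, n = 3), Cox4i1 at 3482 ± 395 and Cox6b1 at 3463 ± 486, which did not differ beyond their spread. Atp5b led complex V at 1697 ± 79.5 RPKM, Ndufb9 complex I at 1830 ± 282, Sdhd complex II at 1347 ± 146 and Uqcr10 complex III at 1308 ± 230. Complex I assembly factors were lower, from 47.5 ± 4.59 RPKM for Ndufaf1 to 118 ± 22.8 for Ndufaf3. At the bottom were Atp5l2 at 1.25 ± 0.204 and Atp5g2 at 1.43 ± 0.467 RPKM. Low levels were also measured for Cox7c, at 23.6 ± 2.67 RPKM, and Atp5l, at 12.9 ± 3.71. Reads that aligned to more than one place made up 39.9% to 42.4% of those recorded and were not counted, and 22.1% of the 50-base stretches of Cox7c and 7.63% of those of Atp5l occur in other genes' transcripts. Over the 85 members, 39 shared no such stretch and 14 shared more than 10%, among them Atp5l2 (73.4%) and Atp5g2 (38.3%). The length in the deposited table is that of the gene model, which for Atp5c1 is 22595 bases, so its 71.2 RPKM depends on that length.

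Several subunits have isoforms made in different tissues, and the sorted samples held mainly the widely expressed ones, in sham and IRI alike. Cox4i1 was at 3066, 3852 and 3527 RPKM in sham and 3171, 3363 and 3722 in IRI, whereas the lung-type Cox4i2 had 3, 5 and 6 reads in sham and 19, 6 and 10 reads in IRI. Cox6a1 was at 1435 to 1982 RPKM in sham, while the muscle isoform Cox6a2 had 1 read in 1 sample. Cox8a was at 2117 to 2696 RPKM in sham, Cox8b had at most 3 reads in a sample, and Cox8c had 0 reads, as did Cox7b2. Cox6b1 was at 2934 to 3890 RPKM in sham and the testis isoform Cox6b2 at 28.0, 32.3 and 30.9, with 31.6, 29.0 and 36.1 in IRI, which overlap. The exception was the heart and muscle isoform Cox7a1, which was substantial beside Cox7a2. Cox7a1 stood at 398, 675 and 614 RPKM in sham and 482, 520 and 538 in IRI, and Cox7a2 at 1338, 1758 and 1648 in sham and 1346, 1445 and 1597 in IRI. Neither differed between groups beyond the spread with all 6 samples (-0.09 ± 0.18 and -0.07 ± 0.13, log2 on the CPM scale). Without sham replicate 1, Cox7a1 was called lower (-0.32, edgeR adjusted p = 0.0371). For the c ring, the counted level of Atp5g3 (1163 ± 197 RPKM in sham) was far above that of Atp5g1 (12.5 ± 1.58) and Atp5g2. Stretches shared with other genes' transcripts, counted as above, made up 0% of Atp5g3, 10.2% of Atp5g1 and 38.3% of Atp5g2. Reads that aligned to several places were not counted, and their part in this ranking was not tested. For Ndufa4, the related Ndufa4l2, known as a hypoxia-induced gene, had 3, 1 and 2 reads in sham and 2, 1 and 0 reads in IRI.

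**Figure D4:**
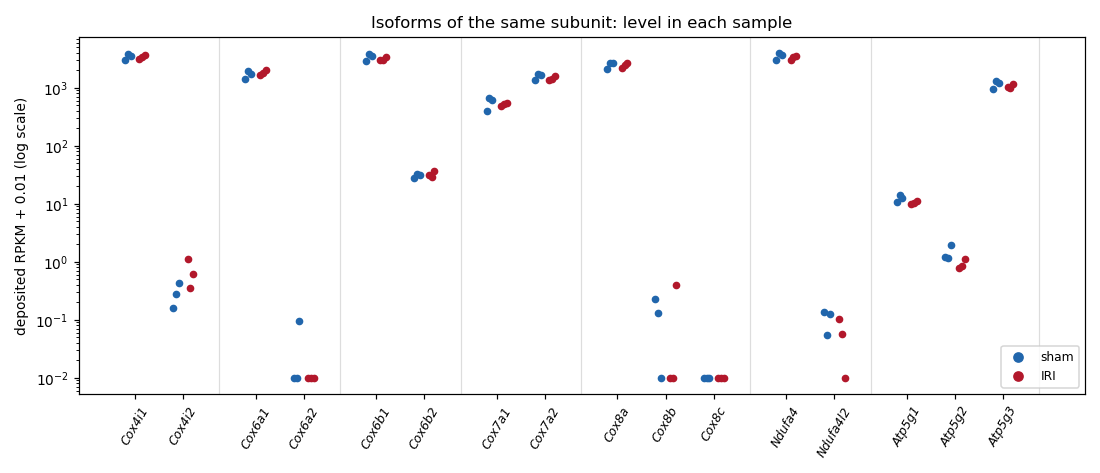
Deposited RPKM plus a small constant (y axis, log scale) of the isoforms of 7 subunits in the 3 sham (blue) and 3 IRI (red) samples; points on the lowest line are 0. A single isoform carries nearly all of the counted level in each set except Cox7a. There Cox7a1 and Cox7a2 are both high (398 to 675 and 1338 to 1758 RPKM in sham). The levels leave out reads that aligned to several places.

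Genes that build the chain or serve it, from 10 lists of 143 tested genes outside the members, were called lower in 61 cases and higher in 9. The share lower was 42.7%, against 21.2% of all genes tested, and 24.2% of all genes tested were called higher. The same shares over all genes are the background for each list below. Complex II and III assembly factors had 7 of 10 lower and 1 higher (median log2 fold change -0.70). Sdhaf4, listed as 1110058L19Rik, a factor that joins the catalytic subunits of complex II, fell from 94.2, 103 and 108 CPM to 32.7, 32.9 and 30.1 CPM (-1.67 ± 0.10, edgeR adjusted p = 1.09e-05). Bcs1l, which inserts the Rieske protein into complex III, fell from 41.5, 43.0 and 46.6 CPM to 19.4, 17.1 and 17.4 CPM (-1.28 ± 0.11, edgeR adjusted p = 5.77e-05). Both were far apart between groups, with a larger change than any subunit they serve. Ttc19, another complex III factor, was higher (0.33 ± 0.087, edgeR adjusted p = 0.0137), a call lost with upper-quartile scaling or library size alone and without sham replicate 3 or IRI replicate 2.

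Complex I assembly factors outside the name stems had 6 of 10 lower and 0 higher (0 at an unadjusted p under 0.05; median -0.42). Ecsit, a partner of Ndufaf1, fell from 107, 109 and 114 CPM to 68.8, 65.4 and 68.7 CPM (-0.70 ± 0.087, edgeR adjusted p = 0.000312), and Tmem186 by 0.75 ± 0.18 (edgeR adjusted p = 0.00885). Complex IV assembly and copper delivery had 7 of 22 lower and 1 higher (median -0.33), led by Cmc2 (listed as 2310061C15Rik, -1.29 ± 0.15, edgeR adjusted p = 0.000212) and Coa6 (listed as 1810063B05Rik, -1.23 ± 0.13, edgeR adjusted p = 0.000136). The higher one, Surf1 (0.27 ± 0.095, edgeR adjusted p = 0.0432), kept its call in 6 of 16 alternatives. Without sham replicate 1, 12 genes of this list were called lower. ATP synthase assembly and regulation had 3 of 7 lower and 0 higher (median -0.13), among them Oxa1l (-0.61 ± 0.11, edgeR adjusted p = 0.0023), which inserts proteins into the inner membrane, and Atpaf2 (-0.61 ± 0.14, edgeR adjusted p = 0.00641). The median of this list is the value of 2010107E04Rik (current symbol Atp5mpl). That gene is also among the 9 rows that match under current symbols, so these sets overlap.

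Among genes for the transcription and copying of mitochondrial DNA, 11 of 21 were lower and 0 higher (1 higher at an unadjusted p under 0.05; median -0.31), with Mterfd3 at -1.43 ± 0.17 (edgeR adjusted p = 0.000275) and the ribosomal RNA methylase Tfb1m at -1.24 ± 0.19 (edgeR adjusted p = 0.000959). Without sham replicate 2, 7 of the 21 were called lower, and without IRI replicate 3, 1 was called higher. Of genes for translation in mitochondria, 11 of 18 were lower and 0 higher (0 at an unadjusted p under 0.05; median -0.36), with the ribosome recycling factor Gfm2 at -0.84 ± 0.10 (edgeR adjusted p = 0.000291) and Mrps35 of the small ribosomal subunit at -0.76 ± 0.098 (edgeR adjusted p = 0.000361). Of 11 nuclear regulators, 5 were lower and 3 higher. Esrrb (-1.67 ± 0.29, edgeR adjusted p = 0.00161) and the coactivator Ppargc1b (-1.25 ± 0.20, edgeR adjusted p = 0.00115) fell most, and the coactivator Pprc1 (1.71 ± 0.17, edgeR adjusted p = 0.000112) and the GABP subunit Gabpb1 (1.28 ± 0.18, edgeR adjusted p = 0.000581) rose most.

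Mobile carriers and ubiquinone synthesis moved in both directions, with 8 of 19 lower and 2 higher (median -0.28). The coenzyme Q binding proteins Coq10a and Coq10b went opposite ways: Coq10a fell from 34.3, 42.4 and 39.8 CPM to 17.9, 18.5 and 21.3 CPM (-1.02 ± 0.13, edgeR adjusted p = 0.000368), and Coq10b rose from 77.2, 59.6 and 54.8 CPM to 245, 286 and 309 CPM (2.13 ± 0.15, edgeR adjusted p = 2.02e-05). Gpd2, the glycerol phosphate dehydrogenase that feeds electrons to ubiquinone, rose by 1.91 ± 0.17 (edgeR adjusted p = 5.68e-05), and Dhodh, the pyrimidine enzyme that also reduces ubiquinone, fell by 1.01 ± 0.10 (edgeR adjusted p = 0.000112). The citric acid cycle had 2 of 18 lower (median -0.14), Idh2 (-0.39 ± 0.10, edgeR adjusted p = 0.0122) and Fh1 (-0.27 ± 0.096, edgeR adjusted p = 0.0447), and 1 higher, the citrate synthase gene Cs (0.27 ± 0.098, edgeR adjusted p = 0.047), whose call held in 2 of 16 alternatives. Fh1 was not called without sham replicate 2 or 3 or without any one IRI replicate, and 4 genes of the cycle were lower without sham replicate 1 and 1 without sham replicate 2 or 3 or IRI replicate 1 or 3. Among ADP/ATP carriers, uncoupling proteins and porins 1 of 7 was lower, the ADP/ATP carrier Slc25a4 (-0.54 ± 0.12, edgeR adjusted p = 0.00601), and 1 higher, Ucp2 (0.42 ± 0.11, edgeR adjusted p = 0.0156), which lost its call with upper-quartile scaling or library size alone and without sham replicate 2.

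**Figure D5:**
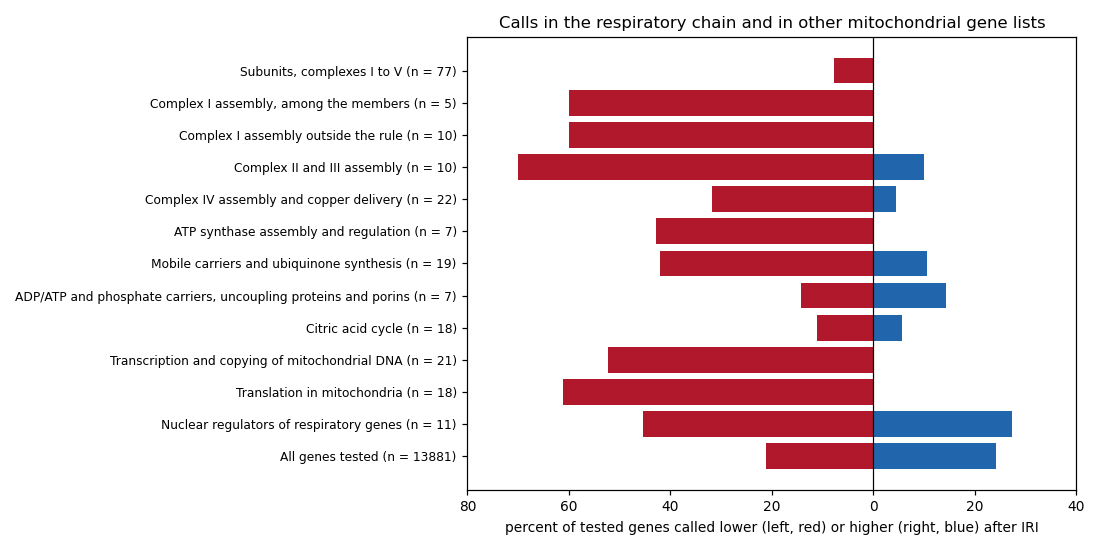
Percent of tested genes called lower (red, left) or higher (blue, right) after IRI (x axis) in the respiratory chain subunits, in the complex I assembly factors among the members, in 10 lists of related mitochondrial genes and over all genes tested; n is the number tested. Subunits of complexes I to V have 6 of 77 lower (7.79%), the citric acid cycle 11.1%, complex II and III assembly factors 70.0% and all genes 21.2%.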

How the data were processed

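RNA of 6 sorted cell samples (3 sham, 3 IRI) was analysed. The deposited counts are raw reads of each gene as whole numbers, and the deposited RPKM table gives symbols, lengths and values for the same genes. Per the submitters' processing notes, the authors used STAR, HTSeq and edgeR on build mm9; their versions and parameters: not given in the sources used here. Libraries were made with SMARTER chemistry, per the labels' protocols, and counting ignored strand, so antisense overlap cannot be told apart. The deposited RPKM equalled the count over the length and an effective library size. That size was 1.04 to 1.09 times the gene total in sham and 0.917 to 0.979 times in IRI. It split by group as the TMM factors did, so log2 RPKM was not a scaling by library total. Reads counted in genes were 49.1% to 50.7% of those recorded, and 5 entries without a gene name were dropped.

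Counts were tested with edgeR 4.0.16 (R 4.3.3): filterByExpr, TMM, a robust quasi-likelihood fit with the group alone on all 6 samples, and Benjamini-Hochberg over 13881 genes, with calls at an adjusted p under 0.05. Standard errors came from the F statistic, and the fit's biological coefficient of variation was 19.0%. CPM uses TMM-scaled library sizes. The fit was also run on simulated counts with few changed genes and less variation between samples than here. That run cannot show how the scaling behaves when 45.5% of genes are called. Alternatives used DESeq2 1.42.0 and limma 3.58.1, with a pseudocount of 1 or 0.1 for log2 RPKM. No sample was a copy of another: chi-square over its degrees of freedom was 18.4 to 51.0 within groups and 167 to 243.5 across them. Whether samples of a group were separate experiments is not in the labels, so p-values reflect only how these pools varied.

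The members and all lists were chosen with earlier results of these data known, Ndufa8, Sdhd and Ndufs7 included; the assignment to complexes was written after values were seen. In each complex and among assembly factors the rule named up to 3 called genes with the largest change in each direction, the member with the highest mean RPKM and all isoforms; in other lists it named 2 called genes with the largest change in each direction. Planned comparisons with mt- genes were not made. Stretches of 50 bases shared with other genes were counted in GENCODE M21 transcripts. Coordinates in mm9 are not printed.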

Additional observations from a re-analysis of the deposited data

How the results depend on the processing

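No member was called higher, no call changed direction under any setting, and all 10 genes called lower kept their call under every other scaling, filter and tool; 7 to 10 kept it with 1 sample left out. How many more were called, and whether their share was under or over that of all genes, depended on the setting. Members called lower numbered 24 with upper-quartile scaling (28.2% of members, against 27.3% of all genes), 50 with library size alone (58.8%, against 31.2%), 17 with no filter (20%, against 13.4%) and 6 for subunits alone, and 7 to 29 with 1 sample left out. The median log2 fold change of all members was -0.34 with library size alone, and -0.27 to -0.08 with 1 sample left out. Complex I had 11 lower with upper-quartile scaling, 24 with library size alone, 10 with no filter, 9 with DESeq2, and 3 to 13 with 1 sample left out. Its assembly factors had 5 with library size alone and 2 to 5 with 1 sample left out. Complex II had 4 with upper-quartile scaling or library size alone, 2 with no filter, the stricter filter, DESeq2 or log2 RPKM, and 1 to 3 with 1 sample left out. Complex III had 2 with upper-quartile scaling, 5 with library size alone and 0 to 3 with 1 sample left out. Complex IV had 2 with library size alone, 1 by name stem and 0 to 1 with 1 sample left out. Complex V had 1 with upper-quartile scaling or by name stem, 8 with library size alone and 0 to 3 with 1 sample left out. Of all calls, 53.3% were higher with TMM, 35.6% with library size alone and 42.0% by upper quartile. The other lists had 61 lower with TMM, 99 with library size alone and 85 by upper quartile. In the same order, 21.2%, 31.2% and 27.3% of all genes were lower. The 2 scalings shift all genes, as given above; for the rest the cause was not tested.

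Samples of the 2 groups share replicate numbers. Deviations of same-numbered samples correlated at 0.17, 0.083 and 0.17 across genes, against -0.18 to 0.045 for samples of different numbers. Each sample thus correlated best with its own number, a hint from the data and not from the design. The main fit did not take the numbers as pairs, and these correlations cannot settle whether they are. With a replicate block, 20 members were called lower (23.5%, against 22.3% of all genes), with 11 in complex I, 2 in complex II, 1 in complex III and 1 in complex V.

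Grouping by name stem, adding current symbols and the other lists were chosen as alternatives after the data were seen. Library sizes without mt- genes and the share of mt- reads were not run. The smallest difference called among the members was -0.36 (log2), at 3 samples a group.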
